A study of Mus musculus with 12 samples.

Results

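Transcripts of 10 factors of the AP-1 and small MAF families were followed in whole mouse kidney after a single dose of SK-124, an inhibitor of the salt-inducible kinases (SIKs) SIK2 and SIK3. The members are 4 FOS genes (*Fos*, *Fosb*, *Fosl1* and *Fosl2*), 3 JUN genes (*Jun*, *Junb* and *Jund*), *Atf3*, and the small MAF genes *Maff* and *Mafk*. They were taken by symbol from the 55401 gene identifiers of each kidney's expression table, and all 10 were found there. All mice were male, of the strain C57BL6 and 8 weeks old, and the labels name no engineered allele. The vehicle group had 6 mice that received 15% 2-hydroxypropyl-beta-cyclodextrin, and the SK-124 group had 6 mice that received 40 mg/kg SK-124, in both cases by one intraperitoneal injection. The time from injection to collection of these kidneys is not given in the sources used here. Each library came from 1 mouse and was sequenced on a BGISEQ instrument.

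AP-1 is a family of dimeric transcription factors built from basic leucine zipper proteins. FOS proteins do not pair with each other and bind DNA as partners of JUN proteins, whereas JUN proteins also pair among themselves and with ATF3. Several of the genes are immediate-early genes, which are transcribed within minutes of a stimulus from factors already present in the cell, and in kidney they respond to growth factors, cyclic AMP and ischemia. The small MAF proteins lack a domain that activates transcription and bind DNA with partners such as NFE2L2 or BACH1. SIKs phosphorylate the CRTC coactivators and keep them in the cytoplasm, and CRTCs free of this restraint act with CREB at cyclic AMP response elements (CREs).

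Levels are given as CPM, a gene's counts brought to a common library size with the TMM method, and comparisons between genes use TPM, which scale reads to transcript length as well. Changes are log2 fold changes of SK-124 over vehicle from edgeR's quasi-likelihood test with their standard error (SE), and FDR is the Benjamini-Hochberg adjusted p over all genes tested. A gene was called when its FDR was under 0.05. Each member was also compared alone, on log2(CPM + 0.5), by an exact permutation test that was two-sided. With 6 mice against 6, its smallest possible p was 0.00216.

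The libraries held 19244227 to 19771802 expected counts. The 10 most abundant genes took 39.9% to 43.2% of the counts in vehicle mice and 38.6% to 46.8% in SK-124 mice, with SK-124 mice 1 to 3 between 44.4% and 46.8%. Vehicle mouse 5 stood apart from the other vehicle mice in immediate-early genes, so the comparison of each member is given with it and without it, as are the counts of the gene lists. This mouse had been singled out from earlier results on these same genes, and the values without it are therefore a description and no independent support. Markers of proximal tubule summed to between 6514 and 8375 CPM in every mouse, and the 6 markers of adrenal cortex, of which *Cyp11b2* and *Cyp21a1* were at 0 in all mice, summed to between 0.392 and 0.877 CPM.

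All 10 genes but *Junb* were placed with their identifier's version in the GENCODE M21 annotation of GRCm38, the assembly that the submitters' notes call mm10. *Fos* lies on the plus strand of chromosome 12 (85473890 to 85477273), *Fosb* on the minus strand of chromosome 7 (19302696 to 19310051), *Fosl1* on the plus strand of chromosome 19 (5447547 to 5455946) and *Fosl2* on the plus strand of chromosome 5 (32135801 to 32157842). *Jun* lies on the minus strand of chromosome 4 (95049034 to 95052222) and *Jund* on the plus strand of chromosome 8 (70698949 to 70700616). *Atf3* lies on the minus strand of chromosome 1 (191170296 to 191218039), *Maff* on the plus strand of chromosome 15 (79346621 to 79359076) and *Mafk* on the plus strand of chromosome 5 (139791513 to 139802653). Each value is a total over the exons of the gene. Genes on the opposite strand overlap some members, and whether the counting used strand is not given in the sources used here. The overlapping protein-coding genes were *Tmem184a* at *Mafk* (log2 fold change -0.02, FDR 0.832), *Prdx2* at *Junb* (0.09, FDR 0.346) and *Ccdc85b* at *Fosl1* (-0.35, FDR 0.0154).

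The 250 bases upstream of each annotated start were read from RefSeq (GRCm38.p6) for 9 members, with 11 starts in all. The letters TGACG or, on the other strand, CGTCA, which form the core of a CRE, stood upstream of 6 of the 9 members, *Fos*, *Fosb*, *Junb*, *Atf3*, *Maff* and *Mafk*. Of 32851 promoters of the same length, 17.8% held them. The full palindrome TGACGTCA, which contains the core letters on both strands, stood upstream of 1 member, *Maff*, and of 1.55% of all promoters. The AP-1 site, TGACTCA or TGAGTCA, stood upstream of 0 of the 9 members and of 4.46% of all promoters. The CArG box, the site of serum response factor, was upstream of 0 of the 9 members and of 1.47% of all promoters. A match of letters is a description of the sequence and not a bound site. Only exact letters within these 250 bases were searched, so sites farther away or with variant letters would be missed. The stretches upstream of these 6 members are shown because cyclic AMP response elements are where CREB and the CRTCs act, with the CRE letters in capitals, 5′ to 3′ on the gene's strand and ending at or near the annotated start. The last 7 bases of the *Atf3* stretch lie within an exon of another *Atf3* transcript.
*Fos*, chr12:85473740-85473889, plus strand: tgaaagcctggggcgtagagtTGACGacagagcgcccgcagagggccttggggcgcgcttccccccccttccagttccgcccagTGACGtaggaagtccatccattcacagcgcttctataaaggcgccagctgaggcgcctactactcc
*Fosb*, chr7:19310052-19310195, minus strand: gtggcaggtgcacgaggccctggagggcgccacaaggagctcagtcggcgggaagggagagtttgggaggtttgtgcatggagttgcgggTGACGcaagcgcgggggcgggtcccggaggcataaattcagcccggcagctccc
*Junb*, chr8:84978749-84978898, minus strand: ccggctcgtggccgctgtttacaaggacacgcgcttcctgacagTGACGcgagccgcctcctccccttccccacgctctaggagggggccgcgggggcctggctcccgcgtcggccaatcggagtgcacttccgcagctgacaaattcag
*Atf3*, chr1:191183334-191183483, minus strand: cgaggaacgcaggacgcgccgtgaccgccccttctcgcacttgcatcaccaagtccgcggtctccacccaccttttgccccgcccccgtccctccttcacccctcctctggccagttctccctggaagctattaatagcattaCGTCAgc
*Maff*, chr15:79347370-79347519, plus strand: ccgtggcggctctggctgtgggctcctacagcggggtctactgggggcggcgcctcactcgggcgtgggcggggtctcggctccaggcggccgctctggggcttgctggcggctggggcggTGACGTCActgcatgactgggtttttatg
*Mafk*, chr5:139791386-139791512, plus strand: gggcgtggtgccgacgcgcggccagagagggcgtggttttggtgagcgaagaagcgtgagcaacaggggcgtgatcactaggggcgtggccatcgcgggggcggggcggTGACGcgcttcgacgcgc

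In these stretches *Fos* has the core letters at -129 to -125 and again at -66 to -62 from its start, *Fosb* at -60 to -56, *Junb* at -106 to -102, *Mafk* at -41 to -37 and *Atf3*, on the opposite strand, at -7 to -3. The palindrome of *Maff* lies at -29 to -22 of the second of its 3 annotated starts. The windows of *Fosl2*, *Jun* and *Jund* held none of the 4 motifs searched. All 250 bases of the *Fosl2* window lie within annotated *Fosl2* exons, so it does not show the sequence before the gene, and 95 bases of the window of the last *Maff* start lie within *Maff* exons.

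Per transcript length, *Jund* was the most abundant member in both groups, with 46.5 ± 4.39 TPM in vehicle mice and 43.6 ± 9.31 TPM in SK-124 mice (mean ± SD, n = 6 each). In the 5 vehicle mice other than mouse 5, *Jun* (8.57 ± 2.28 TPM) and *Junb* (8.08 ± 1.34 TPM) came next and did not differ from each other beyond their spread. *Mafk* (4.68 ± 0.673 TPM) and *Fosl2* (1.69 ± 0.329 TPM) followed. *Maff* (0.648 ± 0.179 TPM), *Fos* (0.536 ± 0.424 TPM) and *Atf3* (0.294 ± 0.189 TPM) overlapped in their ranges, and *Fosb* (0.0600 ± 0.0480 TPM) and *Fosl1* (0.0640 ± 0.127 TPM) were at the bottom. In SK-124 mice *Junb* stood at 24.6 ± 9.46 TPM and *Jun* at 10.95 ± 2.53 TPM, with no overlap between the lowest *Junb* value (15.4 TPM) and the highest *Jun* value (14.7 TPM). *Mafk* (8.17 ± 1.49 TPM), *Fosl2* (5.38 ± 1.37 TPM), *Maff* (3.88 ± 1.22 TPM), *Atf3* (3.53 ± 2.83 TPM) and *Fos* (2.83 ± 1.79 TPM) formed an order in which each gene overlapped its neighbour. *Fosb* (0.480 ± 0.267 TPM) and *Fosl1* (0.213 ± 0.125 TPM) remained lowest.

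SK-124 was followed by higher transcript levels of *Atf3*, *Maff*, *Fosl2*, *Junb* and *Mafk*, by 17.0-fold for *Atf3*, 6.96-fold for *Maff*, 3.91-fold for *Fosl2*, 2.22-fold for *Junb* and 1.86-fold for *Mafk* across all 12 mice. *Fos*, *Fosb*, *Jun* and *Jund* were not called with all mice. Without vehicle mouse 5, *Fos*, *Fosb* and *Jun* passed as well, and *Jund* did not under either set of mice. Thus 5 of the 9 members tested were called higher and 0 lower with all mice, while 24.4% of all 14159 genes tested were called, 10.8% higher and 13.5% lower. Without vehicle mouse 5 these counts were 8 of 9 higher and 0 lower, while 21.7% of 14257 genes were called, 9.69% higher and 12% lower. Mouse 5 had been singled out for high values of these same genes, so the counts without it follow that choice and are a description. The median log2 fold change of the 9 members was 1.15 with all mice and 2.06 without mouse 5, beside -0.01 for all genes in both sets. *Fosl1* had too few counts to be tested across genes. *Atf3* and *Fosb* reached 10 counts in every SK-124 mouse but in only 4 and 1 vehicle mice, so their passage of the filter rested on the group in which they were high. For *Fosb* that 1 vehicle mouse was mouse 5, with 67 counts.

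**Figure D1:**
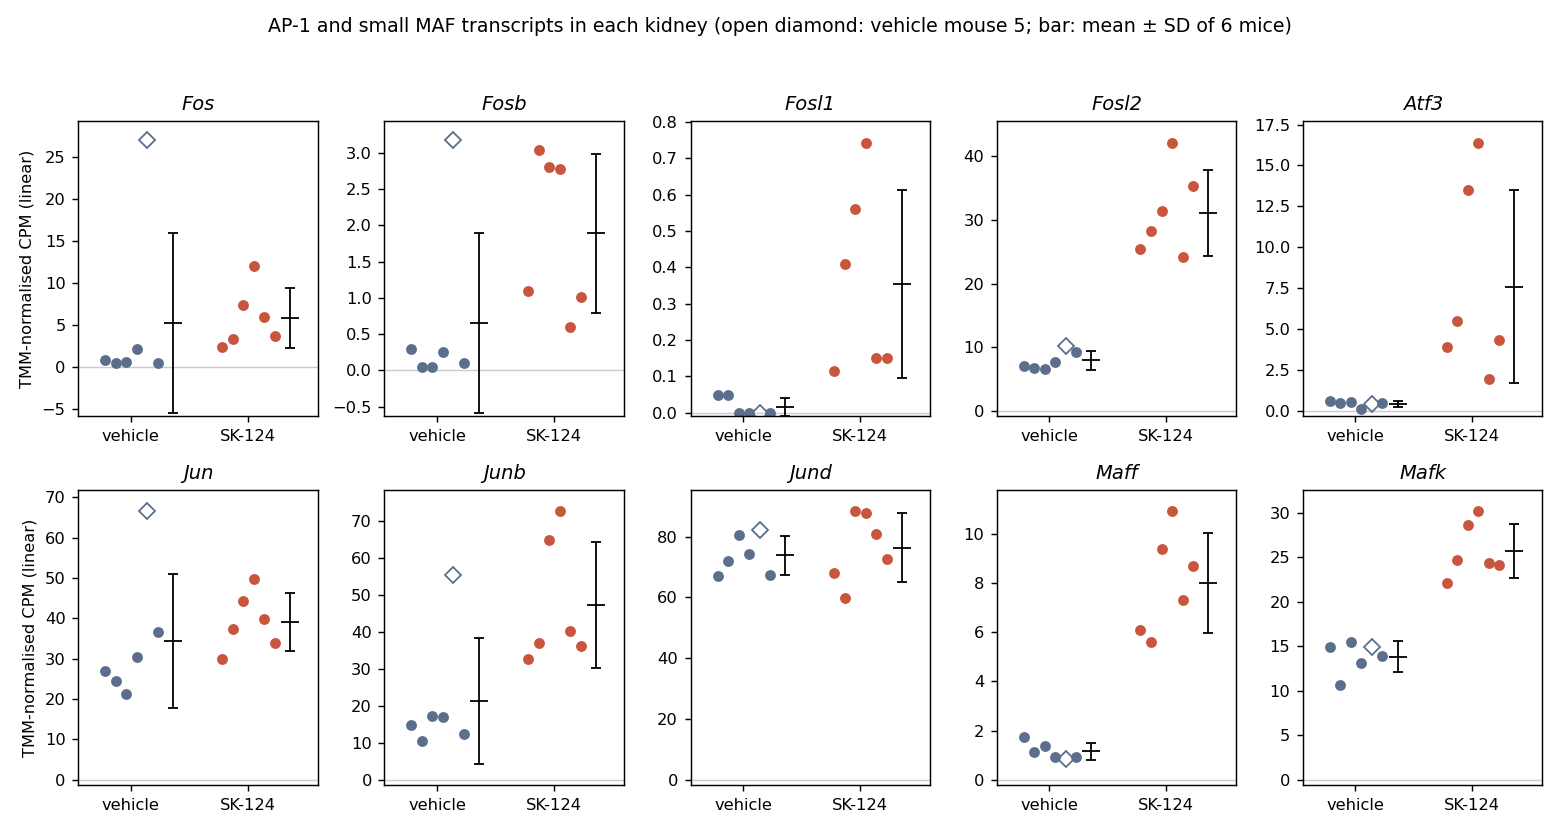
Each panel plots one member on a linear axis of TMM-normalised CPM, 1 point per mouse, with the mean and SD of the 6 mice of each group beside the points and vehicle mouse 5 as an open diamond. The diamond lies above every other vehicle point for *Fos* (27.1 CPM), *Fosb* (3.18 CPM), *Jun* (66.5 CPM) and *Junb* (55.4 CPM). By smaller margins it is also highest for *Fosl2* (10.2 against at most 9.19 CPM) and *Jund* (82.0 against at most 80.5 CPM). It lies among or below the other vehicle points for *Atf3*, *Maff* and *Mafk*. The groups do not overlap for *Fosl1*, *Fosl2*, *Atf3*, *Maff* and *Mafk*.

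*Fos*, the prototype immediate-early partner of JUN proteins, had the largest SD of log2(CPM + 0.5) in vehicle mice among the members tested (1.86). Vehicle mice 1 to 6 had 0.839, 0.496, 0.613, 2.12, 27.1 and 0.521 CPM, and SK-124 mice 1 to 6 had 2.43, 3.33, 7.39, 12.1, 5.91 and 3.70 CPM. Vehicle mouse 5 exceeded every SK-124 mouse, whereas each SK-124 mouse exceeded each of the other 5 vehicle mice. With all mice the log2 fold change of *Fos* was 0.13 (SE 0.78, FDR 0.925; exact permutation p = 0.134). Its 95% interval ran from -1.52 to 1.79. Without vehicle mouse 5 it was 2.67 (SE 0.45, FDR 0.000362; exact permutation p = 0.00216 with 6 mice against 5).

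*Fosb*, a close relative of *Fos* whose product is longer-lived in some of its forms, had the same arrangement at a lower level. Vehicle mice 1 to 6 had 0.296, 0.0496, 0.0511, 0.252, 3.18 and 0.0948 CPM, and SK-124 mice 1 to 6 had 1.10, 3.04, 2.80, 2.77, 0.601 and 1.01 CPM. The highest vehicle value was again that of mouse 5 and lay above all SK-124 mice, and the other 5 vehicle mice lay below all SK-124 mice. The log2 fold change was 1.48 with all mice (SE 0.69, FDR 0.134; exact permutation p = 0.0411) and 3.60 without mouse 5 (SE 0.55, FDR 0.000156; exact permutation p = 0.00433). The vehicle values other than mouse 5 rest on 1 to 6 counts per library, so the fold is imprecise.

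*Fosl1*, which encodes FRA1, was close to absence in vehicle kidney. Vehicle mice 1 to 6 had 1, 1, 0, 0, 0 and 0 expected counts, and SK-124 mice 1 to 6 had 2, 7, 10, 15, 3 and 3. Every SK-124 mouse lay above every vehicle mouse in CPM (exact permutation p = 0.00216 with all mice and 0.00866 without mouse 5), but no fold is given at these counts. In TPM the groups overlapped, at 0 to 0.290 in vehicle mice and 0.0800 to 0.400 in SK-124 mice, because vehicle mouse 1 was given 0.290 TPM from its single count.

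*Fosl2*, which encodes FRA2, was the FOS gene whose call did not depend on vehicle mouse 5. Vehicle mice 1 to 6 had 7.11, 6.79, 6.54, 7.76, 10.2 and 9.19 CPM, and SK-124 mice 1 to 6 had 25.4, 28.3, 31.4, 42.1, 24.1 and 35.4 CPM. The lowest SK-124 value was more than the highest vehicle value, that of mouse 5, and the groups stood well apart. The log2 fold change was 1.97 (SE 0.14, FDR 1.9e-08; exact permutation p = 0.00216), and without mouse 5 it was 2.06 (SE 0.14, FDR 2.9e-08).

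*Atf3*, a stress-induced factor that pairs with JUN proteins and often represses its targets, had the largest fold among the members tested with all mice. Vehicle mice 1 to 6 had 0.592, 0.496, 0.562, 0.101, 0.427 and 0.474 CPM, and SK-124 mice 1 to 6 had 3.94, 5.49, 13.5, 16.4, 1.95 and 4.31 CPM. All SK-124 mice lay above all vehicle mice, and within the SK-124 group mice 3 and 4 stood well above the other 4. Vehicle mouse 5 was not high in *Atf3* and ranked 5 of the 6 vehicle mice. The log2 fold change was 4.09 (SE 0.54, FDR 2.5e-05; exact permutation p = 0.00216), and without mouse 5 it was 4.07 (SE 0.60, FDR 0.000105; exact permutation p = 0.00433).

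Among the JUN genes, *Junb*, which encodes a partner of FOS proteins that can restrain JUN, rose with all mice. Vehicle mice 1 to 6 had 14.9, 10.4, 17.1, 16.9, 55.4 and 12.4 CPM, and SK-124 mice 1 to 6 had 32.5, 37.1, 64.8, 72.5, 40.1 and 36.2 CPM. Vehicle mouse 5 lay within the SK-124 range, below SK-124 mice 3 and 4, and the other 5 vehicle mice lay below all SK-124 mice. The log2 fold change was 1.15 (SE 0.34, FDR 0.0192; exact permutation p = 0.0108) and without mouse 5 it was 1.72 (SE 0.21, FDR 1.7e-05; exact permutation p = 0.00216). With all mice the call was lost when only SK-124 mice 1 to 3 (log2 fold change 1.08, FDR 0.102) or only SK-124 mice 4 to 6 (1.23, FDR 0.0610) were kept, and with robust dispersion estimates (1.15, FDR 0.0805).

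*Jun*, the founding JUN gene, whose protein is activated by JNK kinases, differed less. It ranged from 21.2 to 66.5 CPM with a median of 28.6 in vehicle mice, and from 29.8 to 49.7 CPM with a median of 38.6 in SK-124 mice. Vehicle mouse 5 was above all SK-124 mice, and without it 4 of the 6 SK-124 mice were above the highest remaining vehicle mouse (36.5 CPM). The log2 fold change was 0.19 with all mice (SE 0.22, FDR 0.579; exact permutation p = 0.305) and 0.49 without mouse 5 (SE 0.14, FDR 0.0166; exact permutation p = 0.0195). The latter call was lost when counts were scaled by library totals alone (0.39, FDR 0.0743) and with limma on log2(TPM + 1) (0.32, FDR 0.200).

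*Jund*, which is expressed without stimulation in most tissues, ranged from 66.9 to 82.0 CPM with a median of 73.2 in vehicle mice and from 59.8 to 88.3 CPM with a median of 76.8 in SK-124 mice. The groups overlapped over nearly their whole range. Its log2 fold change was 0.05 (SE 0.09, FDR 0.754; exact permutation p = 0.755) with a 95% interval from -0.14 to 0.23, and the sign of the estimate turned with the scaling, at -0.059 with library totals alone. Without mouse 5 it was 0.08 (FDR 0.612), with an interval from -0.12 to 0.27.

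Both small MAF genes rose without overlap between groups. *Maff*, a small MAF that is itself inducible, had 1.73, 1.14, 1.38, 0.907, 0.854 and 0.900 CPM in vehicle mice 1 to 6 and 6.08, 5.61, 9.41, 10.9, 7.31 and 8.72 CPM in SK-124 mice 1 to 6. The lowest vehicle value was that of mouse 5. Its log2 fold change was 2.80 (SE 0.20, FDR 1.9e-08; exact permutation p = 0.00216) and 2.73 without mouse 5 (SE 0.21, FDR 1.1e-07). *Mafk*, which is expressed more steadily, ranged from 10.7 to 15.4 CPM with a median of 14.3 in vehicle mice and from 22.1 to 30.1 CPM with a median of 24.5 in SK-124 mice. Its log2 fold change was 0.90 (SE 0.09, FDR 1.5e-06; exact permutation p = 0.00216) and 0.92 without mouse 5 (SE 0.10, FDR 4.7e-06). Of the 9 members tested, 4 (*Fosl2*, *Atf3*, *Maff* and *Mafk*) had every SK-124 mouse above every vehicle mouse, an arrangement found for 6.32% of all genes tested. Without vehicle mouse 5 the count was 7 of 9, beside 6.9% of all genes, and this count too follows the choice of that mouse and is a description.

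**Figure D2:**
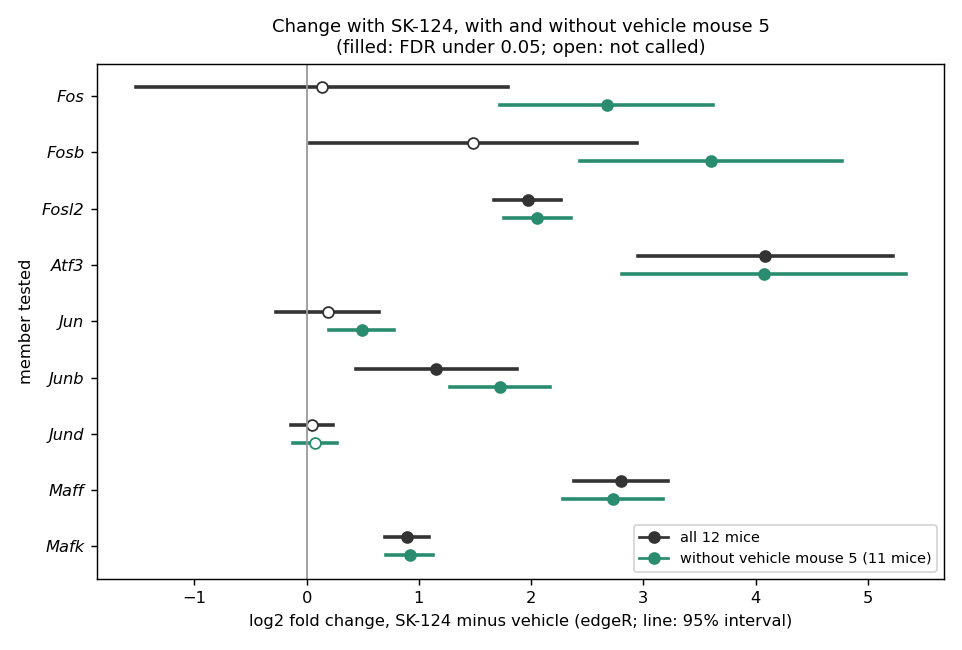
Points give the log2 fold change of SK-124 over vehicle on the horizontal axis for the 9 members tested, with all 12 mice (dark) and without vehicle mouse 5 (green), and lines give 95% intervals. Filled points had FDR under 0.05. The estimates of *Fosl2*, *Atf3*, *Maff* and *Mafk* barely moved when mouse 5 was left out, whereas *Fos* moved from 0.13 to 2.67 and *Fosb* from 1.48 to 3.60, and *Jund* (0.05, with its sign turned under library totals alone) was not called in either.

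Vehicle mouse 5 did not raise the members evenly. Relative to the mean of the other 5 vehicle mice it had 29.5 times the *Fos* CPM, 21.4 times the *Fosb* CPM, 3.86 times the *Junb* CPM and 2.39 times the *Jun* CPM. For *Fosl2*, *Jund* and *Mafk* the ratios were 1.37, 1.14 and 1.10, and for *Atf3* and *Maff* they were 0.960 and 0.705. The SK-124 mean over the same 5 vehicle mice was 17.1 for *Atf3*, 12.7 for *Fosb*, 6.62 for *Maff*, 6.33 for *Fos*, 4.16 for *Fosl2*, 3.29 for *Junb*, 1.89 for *Mafk*, 1.40 for *Jun* and 1.06 for *Jund*. Thus *Fos*, *Fosb*, *Jun*, *Junb* and, by a small margin, *Jund* were higher in this vehicle-treated kidney than the SK-124 mean, and *Atf3*, *Maff*, *Fosl2* and *Mafk* were lower. *Fos*, *Fosb* and *Junb*, 3 of the 9 members tested, were over 2 times the highest of the other vehicle mice, as were 19 of all 14159 genes (0.134%). Mouse 5 was the highest vehicle mouse for 6 of the 9 members and for 17.5% of all genes.

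**Figure D3:**
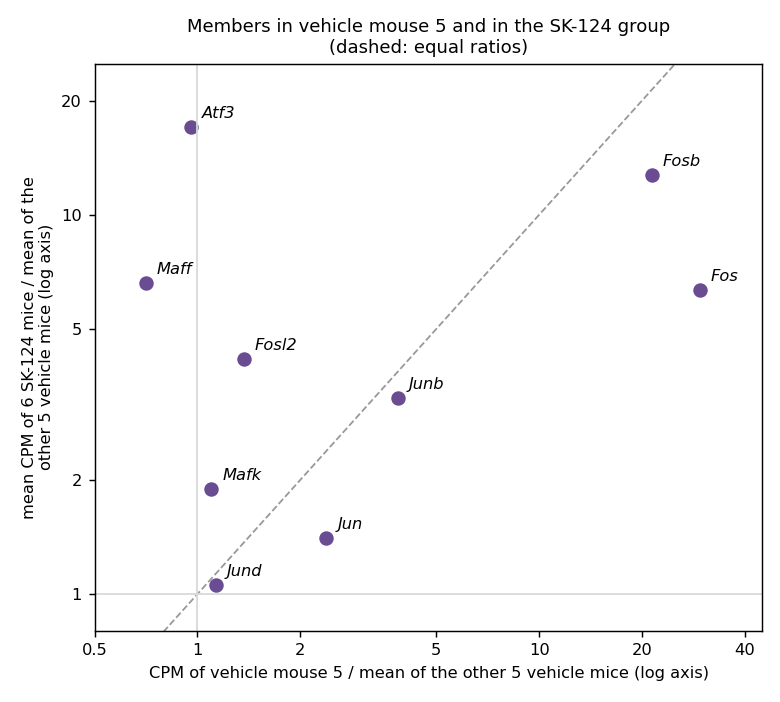
For the 9 members tested, the horizontal log axis gives the CPM of vehicle mouse 5 and the vertical log axis the mean CPM of the 6 SK-124 mice, each divided by the mean of the other 5 vehicle mice, and the dashed line marks equal ratios. *Fos* (29.5 and 6.33), *Fosb* (21.4 and 12.7), *Junb* (3.86 and 3.29) and *Jun* (2.39 and 1.40) lie on the side of mouse 5, and *Atf3* (0.960 and 17.1) and *Maff* (0.705 and 6.62) lie on the side of SK-124.

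Other immediate-early genes shared the arrangement of mouse 5. Of 15 tested, 13 were highest in mouse 5 among the vehicle mice, beside 17.5% of all genes. Of the 15, 7 were over 2 times the highest of the others, beside 0.134% of all genes. Mouse 5 had been singled out for high immediate-early genes, so these counts restate that choice and are a description. *Egr1*, a zinc finger immediate-early factor, reached 215 CPM in mouse 5, against 5.80 to 18.8 CPM in the other vehicle mice and a mean of 28.1 ± 24.5 CPM in SK-124 mice (SD, n = 6). *Ccn1*, an immediate-early gene for a matrix protein, reached 77.0 CPM in mouse 5 against 10.9 to 17.7 CPM in the other vehicle mice, and had a lower mean, 9.30 ± 2.81 CPM, in SK-124 mice. The neutrophil genes *S100a8* and *S100a9* were also highest in mouse 5 among vehicle mice, at 0.569 and 0.474 CPM, and at most 0.151 CPM in the others. The summed markers of other cell types placed mouse 5 within the range of the other vehicle mice for proximal tubule, podocytes, macrophages and neutrophils together, lymphocytes and red blood cells, just above that range for distal nephron (4244 against at most 4012 CPM), endothelium (173 against at most 169.9 CPM) and adrenal cortex (0.664 against at most 0.655 CPM), and just below it for tubular injury (224 against at least 234 CPM). What set mouse 5 apart was not tested.

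Within the SK-124 group the members tended to be high or low in the same mice. SK-124 mouse 4 was the highest of its group for 8 of the 10 members, and mouse 3 was among the 2 highest for 9 of 10. Mouse 1 was the lowest for 5 members and mouse 5 for 3. Of the 9 members tested, 7 had mice 3 and 4 as the 2 highest, beside 9.23% of all genes. This pair was picked from the values of these same members, so the counts restate that choice and are a description. The mean of mice 3 and 4 was 3.81 times the mean of the other 4 SK-124 mice for *Atf3*, 2.53 times for *Fos*, 1.94 times for *Fosb*, 1.88 times for *Junb* and 1.47 times for *Maff*. It lay between 1.23 times (*Mafk*) and 1.34 times (*Jun*) for *Jun*, *Fosl2*, *Jund* and *Mafk*. The members were not in one order, however, since SK-124 mouse 5 was the lowest for *Atf3* (1.95 CPM) and *Fosb* (0.601 CPM) but ranked 3 of 6 for *Fos*, *Jun* and *Junb*, and SK-124 mouse 2 was the highest for *Fosb* (3.04 CPM) but the lowest for *Maff* (5.61 CPM) and *Jund* (59.8 CPM). Mice 3 and 4 differed in the share of counts taken by the 10 most abundant genes (44.4% and 39.7%).

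**Figure D4:**
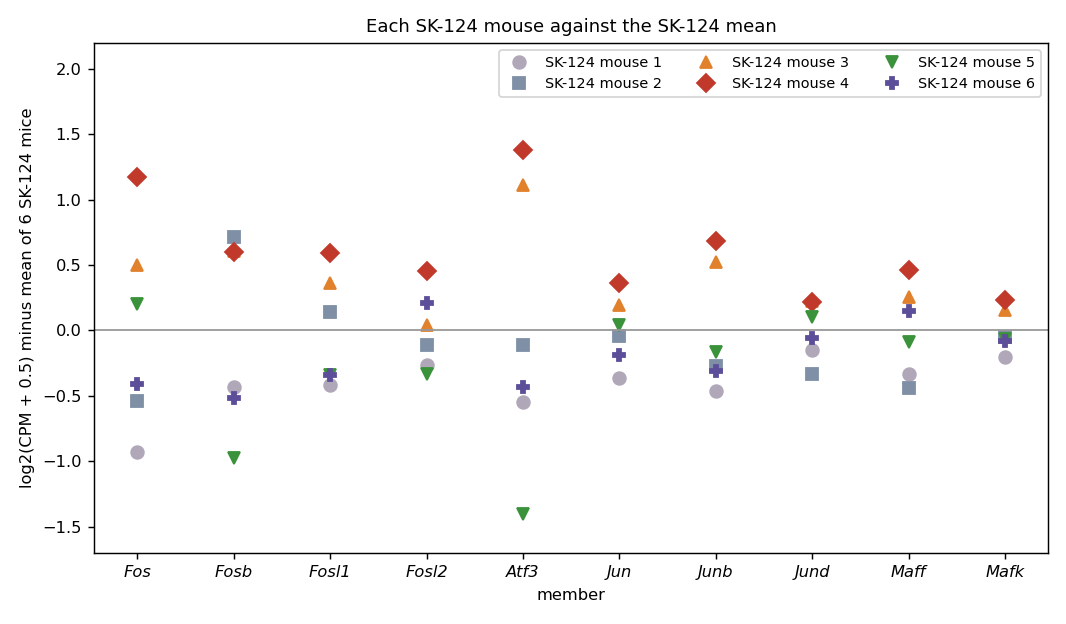
For each of the 10 members, points give the log2(CPM + 0.5) of each SK-124 mouse minus the mean of the 6 SK-124 mice. Mouse 4 (red diamonds) and mouse 3 (orange triangles) lie above 0 for every member, at 1.38 and 1.11 for *Atf3* and at 0.24 and 0.16 for *Mafk*, and mouse 1 (grey circles) lies below 0 for every member.

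The spread between mice treated alike differed among the members. In the SK-124 group the SD of log2(CPM + 0.5) was 1.06 for *Atf3*, 0.77 for *Fos*, 0.73 for *Fosb* and 0.48 for *Junb*, each above the 98th percentile of all genes tested, beside a median of 0.14 over all genes. For *Maff*, *Fosl2*, *Jun*, *Jund* and *Mafk* it was 0.35, 0.30, 0.26, 0.22 and 0.16. In the 5 vehicle mice other than mouse 5 it was largest for *Fos* (0.58), where vehicle mouse 4 (2.12 CPM) stood highest, and it was 0.11 for *Jund*. Including mouse 5 raised it to 1.86 for *Fos*, 1.05 for *Fosb*, 0.83 for *Junb* and 0.58 for *Jun*, and left it at 0.29 for *Maff*.

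The make-up of the pool of the 10 transcripts, as shares of their summed TPM, shifted with SK-124. The JUN genes made up a median of 88.4% in vehicle mice (82.0% to 90.0%) and of 76.0% in SK-124 mice (73.5% to 80.2%), and the groups did not overlap. Without mouse 5 the lowest JUN share in vehicle mice was 86.7%. The small MAF share was 7.27% (4.43% to 9.12%) in vehicle mice and 11.9% (10.7% to 12.9%) in SK-124 mice. The FOS share was 3.63% in vehicle mice, where mouse 5 stood at 13.4% and the others between 2.83% and 3.85%, and 8.43% (7.30% to 10%) in SK-124 mice. The *Atf3* share was 0.394% (0.0715% to 0.779%) in vehicle mice and 2.65% (0.936% to 5.55%) in SK-124 mice. The summed TPM itself was 64.9 to 74.4 in the vehicle mice other than mouse 5, 134.8 in mouse 5 and 73.4 to 146.9 in SK-124 mice. Within the JUN genes, *Junb* made up 14.6% (median) of the TPM in vehicle mice and 28.6% in SK-124 mice, while *Jund* made up 71.2% and 56.3%, and *Jun* 14.1% and 13.6%. Vehicle mouse 5, with 30.6% *Junb* and 49.6% *Jund*, lay inside the SK-124 ranges (26.4% to 37.1% and 49.2% to 60.6%), so the groups overlapped, whereas the other 5 vehicle mice lay outside both (10.1% to 14.8% and 69.7% to 77.0%). Within the FOS genes, *Fosl2* was the largest part in every SK-124 mouse (50.3% to 70.4%), and in vehicle mouse 5 *Fos* was (80.7%). Shares of RNA say nothing of the amounts of protein, and in whole kidney a change in the RNA of each cell and a change in the number of cells that express a gene cannot be told apart.

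**Figure D5:**
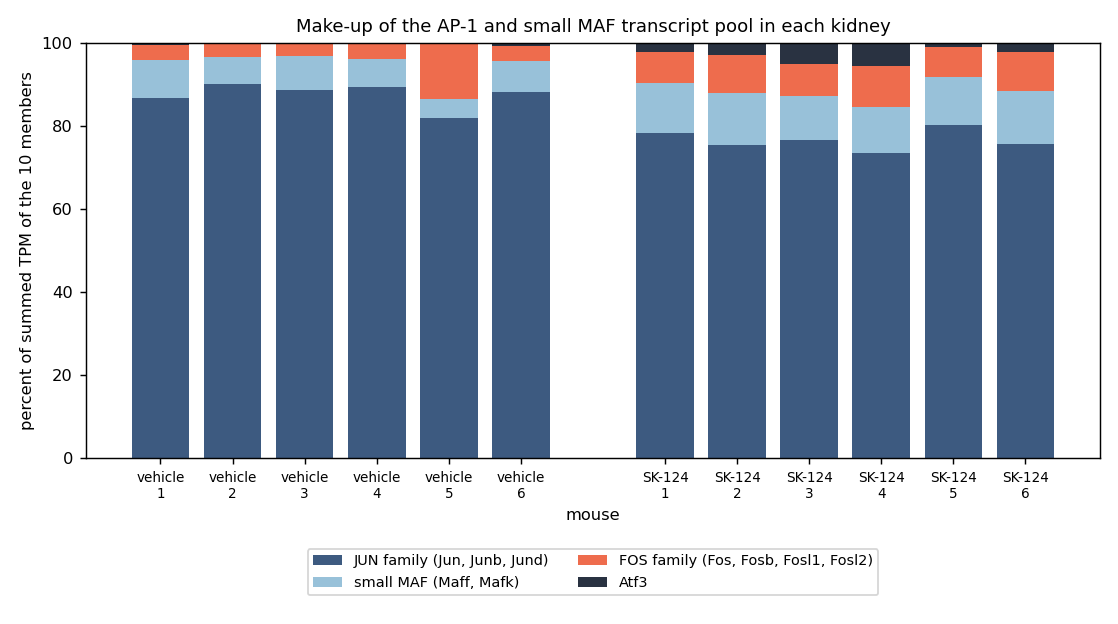
Each bar is 1 mouse and shows the percent of the summed TPM of the 10 members contributed by the JUN genes, the small MAF genes, the FOS genes and *Atf3*. The JUN part is 82.0% to 90.0% in vehicle mice and 73.5% to 80.2% in SK-124 mice, and the FOS part of vehicle mouse 5 (13.4%) exceeds that of every other mouse.

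The genes whose mouse-to-mouse pattern was most like that of 3 members were found from the Pearson r of log2(CPM + 0.5) after each group's mean was removed, over 12 mice. For *Fos* they were *Egr1* (r = 0.972), *Zfp36* (0.971), *Dusp1* (0.962), *Ccn1* (0.949) and *Ier2* (0.936), and for *Junb* they were *Egr1* (0.976), *Ier2* (0.962), *Zfp36* (0.944), *Btg2* (0.929) and *Dusp1* (0.915). All of these share the high value of vehicle mouse 5. Over the 11 mice without it, *Egr1* remained among the first 5 for *Fos* (0.914) and for *Junb* (0.926), and *Zfp36* for *Fos* (0.880), and the rest were *Tcte2* (0.928), *Camk2n2* (0.923) and *Rela* (0.905) for *Fos*, and *Cmss1* (0.943), *Cfap20* (0.943), *Ube2e2* (0.930) and *Kcnt1* (0.921) for *Junb*. For *Atf3* the first was *Hist1h1c*, a histone H1 gene, with r = 0.952 over 12 mice and 0.952 over 11. It was followed over 12 mice by *Gm5641* (0.897), *Fam217a* (0.886), *Spns3* (0.883) and *Bdkrb2* (0.882), and over 11 mice by *Gm13340* (0.922), *Fam217a* (0.908), *Zfp869* (0.907) and *Gm5641* (0.897). Among the members themselves, *Fos* and *Junb* had r = 0.952 over 12 mice and 0.847 over 11, whereas *Fos* and *Atf3* had 0.173 and 0.372. These coefficients were picked as the highest over all genes tested and describe these libraries.

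Relatives that can pair with these factors changed less. Of 17 other AP-1 dimer and MAF family genes, 13 were tested. With all mice 4 rose and 0 fell, beside 10.8% of all genes called higher and 13.5% lower. Without mouse 5, 5 rose and 0 fell, beside 9.69% of all genes called higher and 12% lower. *Bach2* (0.63), *Jdp2* (0.59) and *Nfe2l2* (0.20) were among those that rose, and each of these lost its call under at least 1 of 5 other scalings and tools. *Batf*, *Mafa* and *Nfe2* were too low to be tested, and *Nrl* was at 0 in all mice. The median log2 fold change of the 13 tested was 0.18. *Bach1*, a repressor that pairs with small MAFs, passed only without mouse 5 (0.25, FDR 0.0481), beside 0.22 (FDR 0.0536) with all mice.

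Of 13 MAP kinases and their kinases, which carry stimuli to AP-1 genes, 1 rose and 3 fell, with a median log2 fold change of -0.03, and 1 rose and 2 fell without mouse 5, a share near the 24.4% and 21.7% of all genes called. *Mapk10* (JNK3), a gene with 0.829 ± 0.0978 CPM in vehicle mice, rose by 0.75 on the log2 scale. *Mapk7* (ERK5) fell by 0.34, *Mapk14* (p38 alpha) by 0.25 and *Mapk9* (JNK2) by 0.18 on the log2 scale. Without mouse 5 *Mapk9* was no longer called (-0.15, FDR 0.109). Of 6 serum response factor, ternary complex and MRTF genes, 3 rose, *Mrtfa* (0.41), *Elk4* (0.31) and *Mrtfb* (0.27), and *Elk3*, a ternary complex factor that represses, fell by 0.66 on the log2 scale, with the same counts without mouse 5. On so few genes these counts are not read against the 24.4% of all genes called. Of these 8 calls, *Mapk7*, *Mapk14* and *Elk3* were kept under each of the 5 other scalings and tools.

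Genes known as AP-1 targets moved in both directions. Of 14 listed, 9 were tested, 4 rose and 3 fell, with a median log2 fold change of 0.36, and 4 rose and 2 fell without mouse 5, beside 24.4% and 21.7% of all genes called in either direction. *Hbegf*, which encodes a ligand of the EGF receptor, rose by 1.41 (SE 0.19, FDR 2.9e-05), *Plaur*, the urokinase receptor, by 1.07 (SE 0.19, FDR 0.000469) and *Spp1*, osteopontin, by 0.36 (SE 0.09, FDR 0.00521). *Mmp13*, a collagenase at 1.23 ± 0.330 CPM in vehicle mice, fell by 1.40, *Ccnd1*, cyclin D1, fell by 0.94 and *Plau*, urokinase, fell by 0.36 on the log2 scale. *Mmp13* had 0.101 to 0.896 CPM in SK-124 mice, so its passage of the filter on low counts rested on the vehicle mice. *Mmp3*, *Mmp9*, *Timp1* and *Il6* were too low to be tested, and *Mmp10* was at 0 in all mice. Of the calls named here, all but that of *Spp1* were kept under each of the 5 other scalings and tools. Without mouse 5 the fall of *Plau* was no longer called (-0.36, FDR 0.0609).

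Of 18 other immediate-early genes, 15 were tested, 10 rose and 2 fell, with a median log2 fold change of 1.03, and 11 rose and 1 fell without mouse 5 (median 1.20), beside 10.8% and 9.69% of all genes called higher. The nuclear receptor genes *Nr4a3* (5.20), *Nr4a2* (3.60) and *Nr4a1* (2.80) had the largest changes, followed by *Dusp1* (2.18), which encodes a phosphatase of MAP kinases, *Zfp36* (1.71), whose product speeds the decay of short-lived mRNAs, and *Btg2* (1.61). Without mouse 5 *Nr4a1* moved to 3.69, level with *Nr4a2* (3.67). In vehicle mice *Nr4a3* had 0 to 0.284 CPM and *Nr4a2* 0.204 to 0.948 CPM, so the size of these 2 changes is imprecise. In SK-124 mice they had 3.61 to 8.86 and 1.95 to 11.6 CPM. Their passage of the filter on low counts thus rested on the group in which they were high. *Klf6* (1.14), *Ier3* (1.03), *Klf2* (0.99) and *Klf4* (0.56) rose less, and *Klf4* lost its call with both limma fits. *Ier5* fell by 0.59, and *Ccn1* fell by 1.36 with all mice (FDR 0.0336) but was not called without mouse 5 (-0.51, FDR 0.0508). *Egr1* was not called with all mice (-0.65, FDR 0.610) and was called higher without mouse 5 (1.50, FDR 0.0314). *Egr2*, *Egr3* and *Npas4* were too low to be tested. *Nr4a2*, *Nr4a3* and *Atf3*, unlike *Fos* and *Egr1*, had vehicle mouse 5 within the range of the other vehicle mice.

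Markers of other cell types were measured beside these changes. Of 8 macrophage and neutrophil markers, *S100a8* (3.10), *S100a9* (3.16) and *Itgam* (0.66) rose and *Cd68* fell by 0.60 on the log2 scale. Without mouse 5 *S100a8* was at 4.09 and *S100a9* at 3.92. The vehicle mice other than mouse 5 had 0 to 0.149 CPM of *S100a8* and 0.0496 to 0.151 CPM of *S100a9*, so the size of these changes is imprecise. The passage of both genes through the filter on low counts rested on the SK-124 mice, in which they were high. With all mice *Itgam* lost its call with library totals alone and both limma fits. The summed level of the 8 was 57.1 to 75.3 CPM in vehicle mice and 65.1 to 79.6 CPM in SK-124 mice, and *S100a8* and *S100a9* averaged 1.45 ± 0.592 and 1.44 ± 0.514 CPM in SK-124 mice. Of 7 lymphocyte markers, summing to 2.57 to 4.65 CPM in vehicle mice and 1.25 to 2.53 CPM in SK-124 mice, 2 were tested and *Cd79a* fell by 1.75. The 5 proximal tubule markers (7043 to 7973 CPM in vehicle and 6514 to 8375 CPM in SK-124 mice) and the 5 red blood cell markers (457 to 1257 and 547 to 784 CPM) had FDRs of 0.514 to 0.833 and 0.445 to 0.711. Among 6 distal nephron markers (3124 to 4244 and 4159 to 4600 CPM) *Aqp2* rose by 0.75, the 4 podocyte markers summed to 183 to 280.1 and 189.8 to 230.2 CPM, and among 4 endothelial markers (119.9 to 173 and 99.8 to 173 CPM) *Kdr* fell by 0.85. Of 4 tubular injury markers (224 to 275 and 258 to 371 CPM), 3 were tested, and *Lcn2* (0.88) and *Clu* (0.29) rose, the latter not with library totals alone or limma. Of 6 adrenal cortex markers (0.426 to 0.664 and 0.392 to 0.877 CPM), 1 was tested, *Star*, and it was not called. Each marker named here as rising or falling was also called without mouse 5. The part of these cells in the changes of the AP-1 genes was not tested.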

How the data were processed

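RNA-Seq was performed on the kidneys of 6 vehicle-treated and 6 SK-124-treated mice, and 1 gene table per mouse was deposited. According to the submitters' processing notes the tools included STAR 2.7.2b and RSEM 1.3.0 and the build was mm10. The expected counts, deposited by the authors, are RSEM's estimates of reads per gene without normalization. The TPM values in the authors' tables were scaled by RSEM to effective transcript length and to a fixed total. The FPKM column was not used.

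Expected counts were rounded to whole numbers and fitted with edgeR 4.0.16 in R 4.3.3 (TMM, filterByExpr, quasi-likelihood test, Benjamini-Hochberg adjustment), with group as the only term. SEs were derived from the log2 fold change and the F statistic. In total 14159 genes were tested, and 14257 without vehicle mouse 5. The permutation test covered all 924 regroupings of 12 mice, or 462 of 11. Alternatives used DESeq2 1.42.0 and limma 3.58.1. Symbols came from GENCODE M21, in which 55141 of 55401 identifiers were found. Intervals are at the 95% level.

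The members and gene lists were chosen with earlier results of these data known. All members were named, and genes of the other lists were named where they passed the test or were untested, except some that are not reported here. The labels give each replicate number to a different mouse in each group. Deviations of same-numbered mice from their group means correlated at -0.09 to 0.14, and the numbers were not used to pair mice. Low correlations over 6 numbers cannot exclude that same-numbered mice shared a step of handling. No 2 mice of a group agreed within sampling noise (30 pairs, smallest chi-square per degree of freedom 4.69). The biological coefficient of variation was 0.101. Values of *Fosl1*, *Fosb* and *Atf3* in vehicle mice rest on few counts. The p-values set the difference between groups against the spread between mice.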

Additional observations from a re-analysis of the deposited data

Results flagged for a closer look

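A value is listed here when it lay far outside its own group by Dixon's test. The 10 members in 2 groups gave 20 groups of 6 mice, and 5 values were found. Chance flags about 1 in 20 groups, but that share cannot be set against vehicle mouse 5, which had been singled out beforehand for high values of these same genes. It held 4 of the 5 values, with 27.1 CPM of *Fos*, 3.18 CPM of *Fosb*, 66.5 CPM of *Jun* and 55.4 CPM of *Junb*, each above the other 5 vehicle mice. They restate that choice and are given as a description. The last was a low value, 0.101 CPM of *Atf3* in vehicle mouse 4, which rests on 2 counts. No SK-124 mouse was marked in this way, although mice 3 and 4 had 13.5 and 16.4 CPM of *Atf3*.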

How the results depend on the processing

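For *Atf3*, *Maff*, *Fosl2* and *Mafk* every alternative that gave a value kept the direction and the call, with and without vehicle mouse 5. Log2 fold changes ranged from 1.61 to 4.29 for *Atf3*, 1.53 to 2.97 for *Maff*, 1.16 to 2.18 for *Fosl2* and 0.65 to 0.97 for *Mafk*, the lowest on the log2(TPM + 1) scale. A filter of at least 10 counts in every mouse left out *Fosb* and *Atf3*, and DESeq2 gave no adjusted p for *Fos* with all mice. *Junb* fell short of the threshold with only SK-124 mice 1 to 3 (1.08) or 4 to 6 (1.23) and with robust dispersion (1.15). *Fosb* passed with limma on log2(TPM + 0.1) (1.33). *Fos* turned to -0.27 with only SK-124 mice 1 to 3. When 1 mouse was left out in turn, *Fos* ranged from -0.22 (without SK-124 mouse 4) to 2.67 (without vehicle mouse 5), and without vehicle mouse 1, 2, 3, 4 or 6 it was -0.089, -0.10, -0.096, -0.033 and -0.11. In the same way *Fosb* ranged from 1.24 to 3.60, *Jun* from 0.083 to 0.49 and *Junb* from 0.99 to 1.72, and only leaving out vehicle mouse 5 changed a call, for *Fos*, *Fosb* and *Jun*, with exact permutation p of 0.00216 for *Fos* and 0.0195 for *Jun*. *Jund* changed sign with library totals alone (-0.059), limma on log2(TPM + 0.1) (-0.12) and log2(TPM + 1) (-0.11) and only SK-124 mice 1 to 3 (-0.033). Without vehicle mouse 5 it changed sign with library totals (-0.015) and limma on log2(TPM + 0.1) (-0.066) and log2(TPM + 1) (-0.064). The call of *Jun* without vehicle mouse 5 was lost with library totals (0.39), limma on log2(TPM + 0.1) (0.36) and log2(TPM + 1) (0.32) and only SK-124 mice 1 to 3 (0.44). The causes were not tested.

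Scaling moved the calls over all genes. Library totals alone moved the median over all genes tested to -0.12 on the log2 scale, limma on log2(TPM + 1) to -0.11 and on log2(TPM + 0.1) to -0.14. The share of calls that were higher fell from 44.5% to 20.3% with library totals, with 777 higher and 3058 lower, and to 19% with limma, with 500 higher on log2(TPM + 1) and 498 on log2(TPM + 0.1). Without vehicle mouse 5 the higher calls numbered 783, 491 and 493 in the same order. With fewer SK-124 mice the lower calls numbered 1233 (mice 1 to 3) and 1267 (mice 4 to 6), and 952 and 1083 without vehicle mouse 5. Leaving out 1 mouse gave 1320 to 1863 higher and 1633 to 2079 lower, and 5 to 8 members higher.

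Short lists moved by single genes. Other AP-1 and MAF genes called higher numbered 2 with library totals, 1 with either limma fit, 2 with SK-124 mice 1 to 3, and 2 to 5 when 1 mouse was left out. MAP kinases called higher numbered 0 with either limma fit and with SK-124 mice 4 to 6, and 1 to 2 when 1 mouse was left out, and those called lower numbered 5 with library totals and 1 with SK-124 mice 4 to 6. Serum response and MRTF factors called higher numbered 1 with library totals and 0 with either limma fit, and AP-1 targets called lower numbered 1 with SK-124 mice 1 to 3. Immediate-early genes called lower numbered 1 with DESeq2, both limma fits, SK-124 mice 1 to 3, SK-124 mice 4 to 6 and robust dispersion, and 1 to 2 when 1 mouse was left out.

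With the replicate number as a block the log2 fold change was 1.29 for *Fos* (FDR 0.184), 1.87 for *Fosb* (FDR 0.0971) and 1.33 for *Junb* (FDR 0.00324), and 5 members were called, as without it. It changed no member's call and left 1573 genes higher and 1893 lower. Of the 6 numbers, 2 had mice that correlated best with their own number. Depth limits *Fosl1*, with 0 to 15 counts per library, and the vehicle values of *Fosb* and *Atf3*.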
